A study of Mus musculus with 2 samples.

Results

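The genes described here encode the main proteins of the extracellular matrix and the integrin receptors by which cells hold on to it. They were chosen by name from the non-control probes, as collagen chains (Col, a number, a, a number), laminin chains (Lama, Lamb or Lamc), names that begin with Itga or Itgb, and Fn1, Fbn1, Fbn2, Nid1, Nid2, Hspg2, Tnc and Tnr. This gave 93 of 36406 gene names, each read from its brightest probe over both arrays. They are 42 collagen chains, 11 laminin chains, 8 matrix glycoproteins, 27 integrin subunits and 5 other Itgb names that are not integrin subunits. The samples were neurospheres of neural stem and progenitor cells, called NSPCs, made from mouse embryonic stem cells by way of embryoid bodies. The miR-153 array held RNA of NSPCs that overexpressed the microRNA miR-153, and the control array held RNA of NSPCs labelled as the overexpression control. Both were tertiary neurospheres at passage 2, taken on day 18 counted from the embryoid bodies. The stem cell line, the vector, its promoter and the degree of overexpression are not given in the sources used here. With 1 array in each of the 2 groups, no difference has a replicate check, and no p-value is given.

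Collagens assemble as triple helices. Fibrillar collagens form the fibres of connective tissue and cartilage, while collagen IV forms the network of basement membranes. Laminins are trimers of an alpha, a beta and a gamma chain that polymerise on cell surfaces, and nidogens and perlecan tie the laminin network to collagen IV. Integrins are pairs of an alpha and a beta subunit that bind these proteins outside the cell and the actin cytoskeleton inside it. In the developing brain, laminin and the laminin receptor of the alpha6 and beta1 subunits are known for anchoring neural stem cells at the ventricle and the vessels, and tenascin C is a matrix protein of the stem cell niche.

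The overexpressed agent is shown by both mature miR-153 sequences, since the labels do not say which arm was meant. Both are from RefSeq (GRCm38.p6), 5′ to 3′, with the seed (bases 2 to 8) in capitals, at chr12:117250821-117250843 for the 5p arm and chr12:117250860-117250881 for the 3p arm, plus strand.
mmu-miR-153-5p: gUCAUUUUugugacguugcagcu
mmu-miR-153-3p: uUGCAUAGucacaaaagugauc
The arms have different seeds, UCAUUUU and UGCAUAG. Whether any matrix or integrin gene is a direct target was not tested.

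A value below is a scaled signal, the background-subtracted spot intensity divided by the 75th percentile of its array, which was 549 intensity units on the miR-153 array and 435 on the control array. Differences are on the log2 scale, miR-153 array minus control array. A gene is called higher or lower from 2-fold upwards, a rule of size. Of the 59305 spots that are no controls, 55.6% of the miR-153 array and 52.5% of the control array were marked as well above background by the scanner software, and 0 were saturated. Repeat spots of a probe gave a median SD of 0.0748 for the log2 difference (288 probes), and different probes of a gene a pooled SD of 0.481 (3762 genes). The spread between cultures could not be measured. When spike-in RNA set the scale, each log2 difference gained 0.23, and the median over all genes was 0.13 and not -0.11. Signs or calls that turned with the scaling are named.

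Matrix and integrin genes stood at least 2-fold apart in both directions. Of the 93, 65 were well above background on both arrays, and 14 of these (21.5%) were higher on the miR-153 array, 19 (29.2%) were lower and 32 lay between. Among all 20431 gene names measured on both arrays, 9.22% were higher and 11.0% lower. Among the 13722 that matched RefSeq, as all 93 did, 11.0% were higher and 9.79% lower. The median difference was -0.01 over the 65 and -0.11 over all genes. The families did not share a direction: 10 of the 14 higher genes were collagens, while 17 of the 19 lower ones were laminins, glycoproteins or integrins. Spike-in scaling gave 16 higher and 16 lower, where 13.7% of all genes were higher and 7.61% lower. A further 6 genes were well above background in miR-153 cells alone, 1 of which was bounded at 2-fold or more, as were 19.2% of all such genes. In turn 3 were well above background in control cells alone, all bounded so, as were 69.3% of all such genes. On neither array were 18 well above background, and Col3a1 was left out for an outlier flag.

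**Figure D1:**
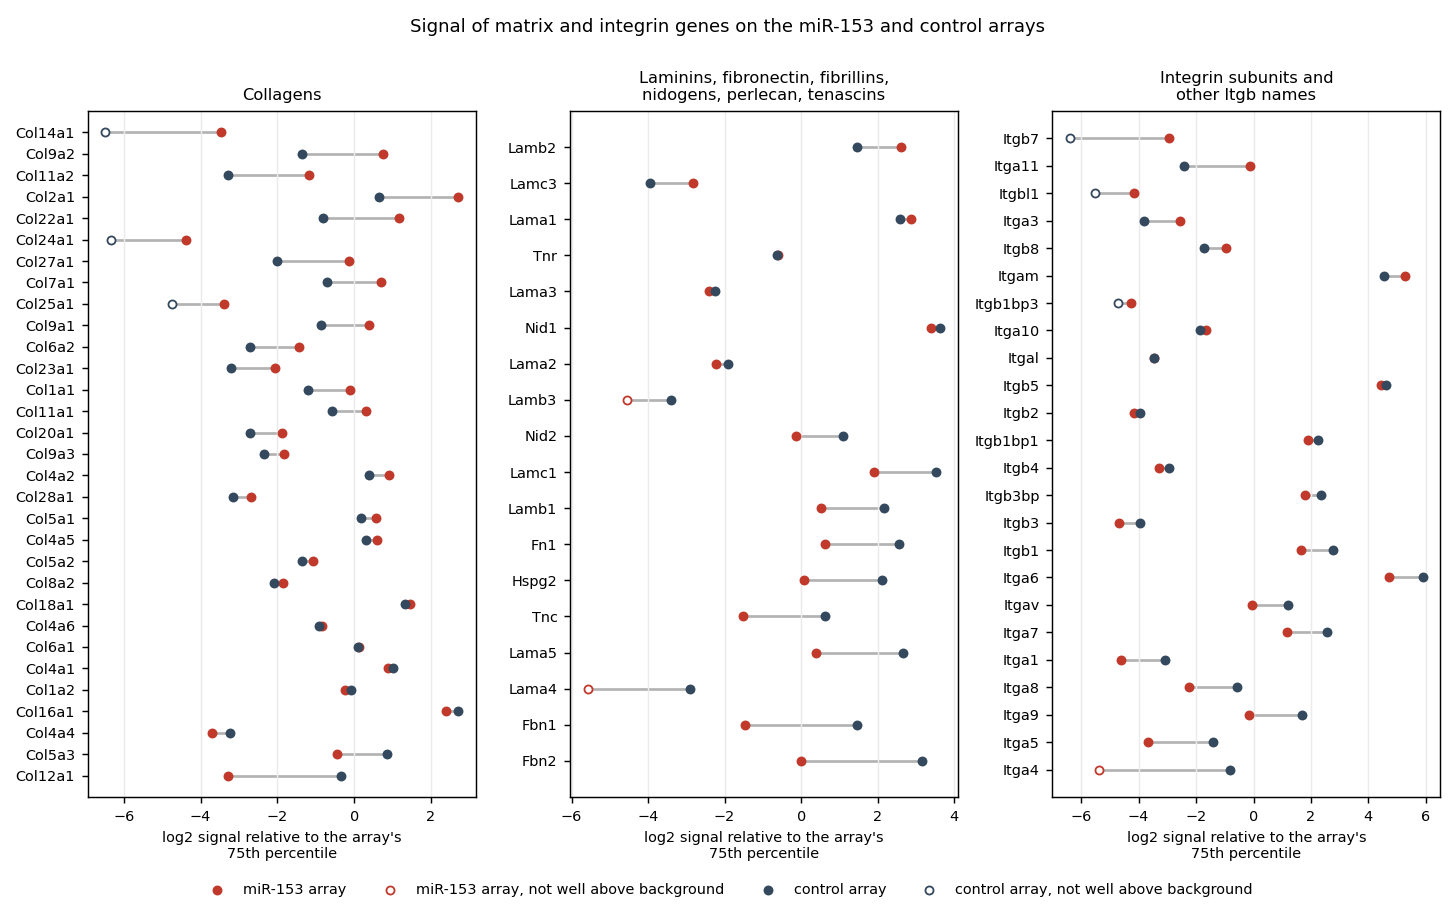
Scaled log2 signal (horizontal axis, relative to the 75th percentile of the array) of the matrix and integrin genes on the miR-153 array (red) and the control array (dark blue), sorted by difference within each panel. Open points were not well above background, and genes above background on neither array and 1 laminin chain are not drawn. Red points lie to the right of blue ones for most collagens and to the left for most glycoproteins and integrin alpha subunits.

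The collagens were the family with higher signal on the miR-153 array. Of 28 chains measured on both arrays, 10 were higher, 2 lower and 16 between, and 22 of the 28 differences were above 0. Their median was 0.49, with a range of 0.30 to 0.72 over the processing settings. Of the 10 higher chains, Col2a1 alone reached the median level of all genes measured on both arrays (mean log2 level 0.33). With only genes of at least that level, 2 of 26 members were higher, Col2a1 and Lamb2, where 7.05% of all genes were. The chains found in cartilage, those of collagens II, IX, XI and XXVII, stood highest: 5 of 7 were higher and 0 lower, with a median of 1.86. This grouping was made with the values known. Col2a1, the chain of the main cartilage fibre, which is also made by early neuroepithelium, had 6.51 on the miR-153 array and 1.58 on the control array, 4.13-fold higher (log2 2.04, probe at chr15:97806071-97806130 on mm9). Col9a2, a chain of the collagen that decorates those fibres, had 1.68 and 0.387 on the miR-153 and control arrays, 4.33-fold higher (2.12, chr4:120727698-120727757). Col11a2, a chain of the minor fibrillar collagen XI, had 0.443 on the miR-153 array against 0.103 on the control array, 4.30-fold higher (2.10, chr17:34203113-34203172). Col27a1, another fibrillar chain, was 3.64-fold higher, with 0.906 on the miR-153 array and 0.249 on the control array. Col9a1 was 2.42-fold higher (1.32 on the miR-153 array against 0.545 on the control array), but its second, dim probe was well above background in control cells alone and at least 1.65-fold lower. Col11a1 (0.89) and Col9a3 (0.53) lay short of the rule, and Col11a1 passed it at 1.12 under spike-in scaling. Of 8 muscle and cartilage markers, 1 was measured on both arrays: Acan, the large cartilage proteoglycan, lower with 0.0524 on the miR-153 array and 0.141 on the control array (-1.43, or -0.66 with normexp, which ends the call), and Matn1 and Comp were well above background on neither array. Fibroblast and mesenchyme markers summed to 26.1 on the miR-153 array and 17.0 on the control array. Of these sums Pdpn, which lay between, gave 13.6 on the miR-153 array and 8.24 on the control array. The part of such cells in the collagen differences was not tested.

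Other collagens differed chain by chain. Col22a1, a collagen of tissue junctions, was 3.94-fold higher, with 2.26 on the miR-153 array and 0.573 on the control array. Col7a1, which forms anchoring fibrils, was 2.65-fold higher (1.61 on the miR-153 array against 0.607 on the control array). Both calls held in every setting that gave a value. Col1a1, a chain of the main collagen of connective tissue, had 0.925 on the miR-153 array and 0.431 on the control array (1.10), while Col1a2, the chain it assembles with, had 0.850 and 0.936 on those arrays (-0.14, or 0.09 under spike-in scaling). Col6a2, of the beaded filament collagen VI, had 0.368 on the miR-153 array and 0.153 on the control array (1.27), and its partner Col6a1 differed by 0.04. The transmembrane collagen gene Col23a1 had 0.238 on the miR-153 array against 0.109 on the control array (1.13). Normexp models the signal left after the local background is subtracted, and here it added an offset of 50 intensity units. With normexp, Col1a1 stood at 0.86, Col6a2 at 0.82 and Col23a1 at 0.56. These 3 calls thus depend on the background correction, its offset included. The 2 lower collagens were Col12a1 and Col5a3. Col12a1, a collagen that sits on fibre surfaces, had 0.103 on the miR-153 array and 0.792 on the control array, 7.71-fold lower (-2.95, chr9:79446895-79446954). Col5a3, a chain of collagen V, had 0.729 on the miR-153 array and 1.82 on the control array, 2.49-fold lower, while the other chains of collagen V, Col5a1 and Col5a2, differed by 0.39 and 0.29.

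The measured collagen IV chains of basement membranes all lay between on their brightest probes. Of 6, 5 were measured on both arrays, with differences of 0.51 for Col4a2, 0.30 for Col4a5, 0.07 for Col4a6, -0.13 for Col4a1 and -0.46 for Col4a4. A second Col4a4 probe went the other way, well above background in miR-153 cells alone and at least 2.21-fold higher. Col4a6 and Col4a1 changed sign between settings. Col4a1, with 1.83 on the miR-153 array and 2.01 on the control array, and Col4a2, with 1.86 on the miR-153 array and 1.31 on the control array, start 21 bases apart on opposite strands of chromosome 8 in RefSeq (GRCm38.p6), and their differences were 0.64 apart on the log2 scale. The collagens with the brightest probes apart from Col2a1 were also between: Col16a1 had 5.20 on the miR-153 array and 6.49 on the control array (-0.32), and Col18a1, whose fragment is endostatin, had 2.72 and 2.51 on the miR-153 and control arrays (0.11). The other chains between, Col20a1 (0.82, or 1.06 under spike-in scaling), Col28a1 (0.47) and Col8a2 (0.24), were dim. Col14a1, Col25a1 and Col24a1 were well above background in miR-153 cells alone, at 0.0909, 0.0958 and 0.0481. The bounds were 1.84-fold for Col14a1 and 1.94-fold for Col25a1, and none above 1 for Col24a1, so no 2-fold difference is shown. Another 10 chains, Col4a3, Col6a4, Col6a5, Col6a6, Col8a1, Col13a1, Col15a1, Col19a1, Col10a1 of growing cartilage and Col17a1 of skin, were well above background on neither array.

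Laminin chains split within the trimer. Of 11, 9 were measured on both arrays, with 2 higher, 3 lower and 4 between, for a median of -0.16, which was 0.07 under spike-in scaling. Lama5, the alpha chain of most mature basement membranes, had 1.32 on the miR-153 array and 6.31 on the control array, 4.79-fold lower (-2.26, chr2:179911079-179911138). Lamb1 had 1.44 on the miR-153 array and 4.50 on the control array, 3.12-fold lower, and Lamc1 had 3.75 on the miR-153 array and 11.5 on the control array, 3.07-fold lower. Lamb1 and Lamc1, a beta and a gamma chain that assemble with each other, thus differed to almost the same extent, 0.02 apart on the log2 scale. Lama1, their alpha chain partner in the first basement membranes of the embryo, had 7.36 on the miR-153 array and 5.95 on the control array (0.31). Lamb2, the beta chain that takes the place of Lamb1 in other trimers, had 6.12 on the miR-153 array and 2.74 on the control array, 2.23-fold higher (1.16, chr9:108392189-108392248). The differences of Lamb2 and Lamb1 lay 2.80 apart on the log2 scale, between 2.64 and 2.83 over the settings, and those of Lama1 and Lama5 lay 2.57 apart. Such a distance does not depend on the constant by which an array is scaled. The dim Lamc3 had 0.140 on the miR-153 array and 0.0645 on the control array (1.12, or 0.24 with normexp). Lama4, of vessel basement membranes, and Lamb3, of skin, were well above background in control cells alone. Lama4 had 0.0210 on the miR-153 array and 0.134 on the control array, at least 3.89-fold lower, and Lamb3 had 0.0429 and 0.0954 on those arrays, at least 2.22-fold lower. Lama2 (-0.29) and Lama3 (-0.16, or 0.07 under spike-in scaling) lay between.

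Of the 8 matrix glycoproteins, 6 were lower on the miR-153 array, 0 were higher and 2 lay between, with a median of -1.97, or -1.74 under spike-in scaling. The fibrillins, which form microfibrils, were the furthest apart. Fbn2, the fibrillin of early development, had 0.992 on the miR-153 array and 8.99 on the control array, 9.06-fold lower (-3.18), and its second probe gave -3.06. Fbn1 had 0.360 on the miR-153 array and 2.73 on the control array, 7.58-fold lower (-2.92, chr2:125126727-125126786). Tnc, encoding tenascin C of neural stem cell niches, had 0.347 on the miR-153 array against 1.53 on the control array, 4.41-fold lower, and its second probe gave -2.46. The related Tnr, a tenascin of mature neural tissue, had 0.655 and 0.650 on the miR-153 and control arrays, a difference of 0.01 that changed sign with normexp. Hspg2, encoding the proteoglycan perlecan, had 1.06 on the miR-153 array and 4.32 on the control array, 4.07-fold lower. Fn1, encoding fibronectin, had 1.55 on the miR-153 array and 5.84 on the control array, 3.77-fold lower (-1.92, chr1:71632116-71632175). The nidogens, which link laminin to collagen IV, differed from each other. Nid2 had 0.906 on the miR-153 array and 2.12 on the control array, 2.34-fold lower (-1.22, or -0.99 under spike-in scaling), and Nid1 had 10.4 and 12.5 on those arrays (-0.25). A second probe of Nid1 gave -0.26, and another, dim one -1.69.

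**Figure D2:**
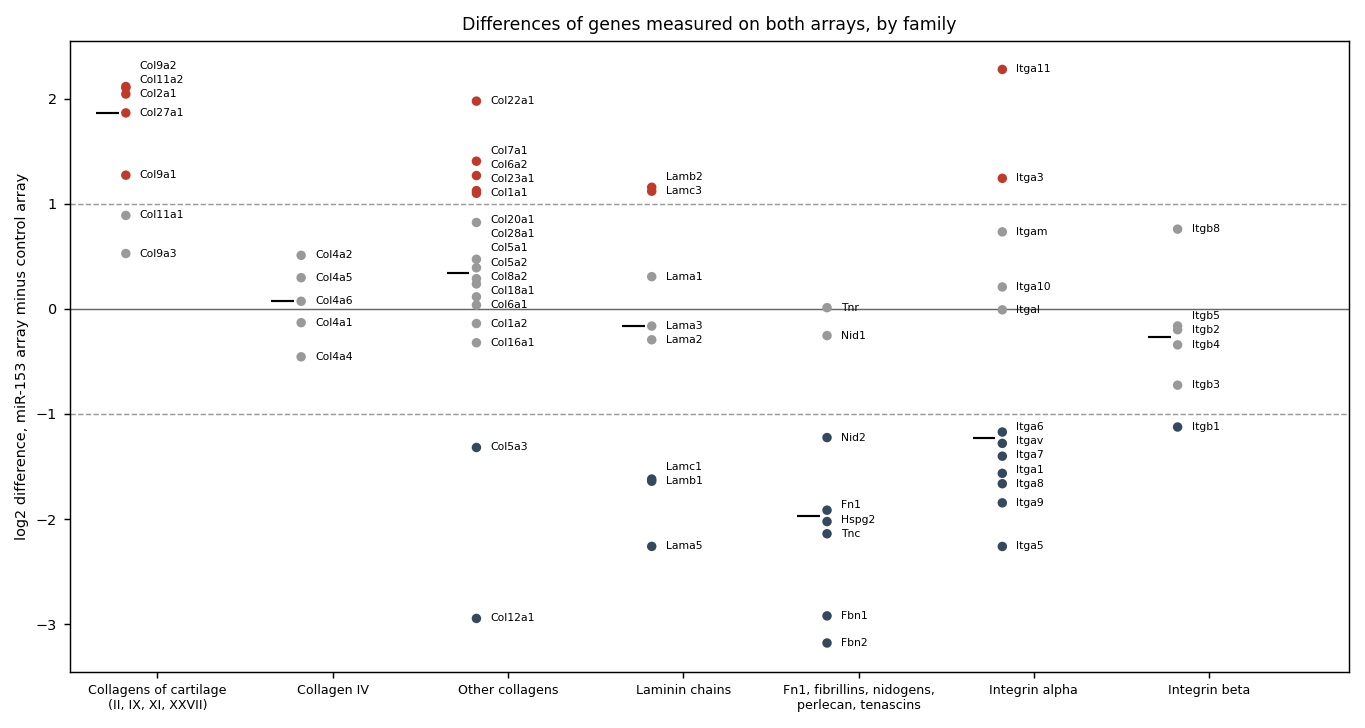
Log2 difference (vertical axis, miR-153 array minus control array) of the genes measured on both arrays, by family, with the median of each family as a black bar (1 laminin chain counts in its median but is not drawn). Red points are at least 2-fold higher, dark blue points at least 2-fold lower and grey points between, and dashed lines mark 2-fold. The cartilage collagens have a median of 1.86 and the glycoproteins one of -1.97.

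Integrin alpha subunits were mostly lower. Of 18, 12 were measured on both arrays, with 2 higher, 7 lower and 3 between, for a median of -1.23. Over all 27 integrin subunits, 18 were measured on both arrays, with 2 higher, 8 lower and 8 between, for a median of -0.53, which was -0.22 after quantile normalization and -0.30 under spike-in scaling. Among the laminin receptors, Itga6, a surface marker of neural stem cells, had 26.4 on the miR-153 array and 59.5 on the control array, 2.25-fold lower (-1.17, chr2:71694756-71694815). Its probe was bright, and its call was lost under quantile, lowess and spike-in scaling, with lowess at -0.83. Itga7 had 2.23 on the miR-153 array and 5.90 on the control array, 2.64-fold lower. Itga3, in contrast, was dim and higher, with 0.170 on the miR-153 array against 0.0718 on the control array (1.24, or 0.42 with normexp). Among the receptors that recognise the RGD motif of fibronectin and related proteins, all 3 measured alpha subunits were lower. Itga5, the fibronectin receptor subunit, had 0.0776 on the miR-153 array and 0.372 on the control array, 4.79-fold lower (-2.26, or -1.37 with normexp). Itga8 had 0.212 on the miR-153 array and 0.673 on the control array, 3.17-fold lower. Itgav, the subunit shared by several vitronectin and fibronectin receptors, had 0.956 on the miR-153 array and 2.32 on the control array, 2.43-fold lower, with a second probe at -1.68.

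Collagen-binding subunits went both ways. Itga11, a receptor subunit for fibrillar collagen in mesenchymal cells, had 0.913 on the miR-153 array and 0.188 on the control array. At 4.85-fold higher (2.28, chr9:62631667-62631726) it had the largest positive difference among the 65 genes, and it kept its call in every setting that gave it a value. Itga1, a receptor subunit for collagen IV, had 0.0404 on the miR-153 array and 0.119 on the control array, 2.96-fold lower. It was dim, close on the miR-153 array to the lowest signal well above background there (0.0344). A second Itga1 probe was well above background in control cells alone, at least 7.77-fold lower. Itga10 differed by 0.21, and Itga2 was well above background on neither array. The subunits Itga4 and Itga9, which bind fibronectin, VCAM1 or tenascin C, were both lower. Itga4 had 0.0241 on the miR-153 array, not well above background, and 0.565 on the control array, at least 16.4-fold lower (chr2:79173193-79173252). A second Itga4 probe was well above background on neither array. Itga9 had 0.889 on the miR-153 array and 3.19 on the control array, 3.59-fold lower.

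Most beta subunits lay between. Of 9, 6 were measured on both arrays, with 1 lower, 0 higher and 5 between, for a median of -0.27. The lower one was Itgb1, the common partner of most matrix-binding alpha subunits, which had 3.12 on the miR-153 array and 6.80 on the control array, 2.18-fold lower (-1.12, or -0.89 under spike-in scaling). Its second probe gave -1.71. Itgb5, which pairs with Itgav, had 21.6 on the miR-153 array and 24.2 on the control array (-0.16, or 0.10 after lowess). Itgb8, a partner of Itgav known for activating TGF-beta in the developing brain, had 0.510 on the miR-153 array and 0.302 on the control array (0.76). Itgb3 (-0.73), Itgb4 of epithelial anchors (-0.34) and Itgb2 of leukocytes (-0.20, or 0.03 under spike-in scaling) were dim. Itgb7, another leukocyte subunit, was well above background in miR-153 cells alone, with 0.130 there and 0.0119 on the control array, at least 2.63-fold higher. Of the leukocyte alpha subunits, Itgam had 38.6 on the miR-153 array and 23.2 on the control array on its bright probe (0.73), but its other probes were close to background and gave -0.64 and -0.75. The call of Itgam depended on the setting, at 1.03 after lowess and -0.22 as the mean of its probes. Of 8 microglia and macrophage markers, 7, among them Aif1, Cx3cr1 and Ptprc, were well above background on neither array, and Csf1r had 1.36 on the miR-153 array and 1.45 on the control array. Itgal differed by -0.01, or 0.22 under spike-in scaling, with a second probe at -1.21. Itga2b, Itgad, Itgae, Itgax, Itgb2l and Itgb6 were well above background on neither array. Among the 5 other Itgb names, Itgb1bp1, a binding partner of the beta1 tail, differed by -0.32 and Itgb3bp, a centromere protein gene, by -0.57. Itgbl1 and Itgb1bp3, which RefSeq names Nmrk2, were well above background in miR-153 cells alone, with bounds of 1.13-fold and 1.06-fold, and Itgb1bp2 on neither.

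Ligand and receptor genes were also set side by side, in pairings made with the values known. For fibronectin, Fn1 at -1.92 stood beside Itga5 at -2.26, Itgav at -1.28 and Itgb1 at -1.12, and beside the other beta partners of Itgav, Itgb5 at -0.16, Itgb8 at 0.76 and Itgb3 at -0.73, none of which was called. For laminin, Itga6 at -1.17, Itga7 at -1.40 and Itga3 at 1.24 stood beside Lamb1 at -1.64, Lamc1 at -1.62 and Lama5 at -2.26, but also beside Lama1 at 0.31 and Lamb2 at 1.16. For fibrillar collagen, Itga11 at 2.28 stood beside Col2a1 at 2.04, Col1a1 at 1.10, Col1a2 at -0.14, Col5a1 at 0.39 and Col5a3 at -1.32. The common beta subunit gene Itgb1 was at -1.12, and the other measured collagen-binding alpha subunits were Itga10 at 0.21 and Itga1 at -1.56. Chains known to assemble with each other did not always differ alike. The difference of Col1a1 was 1.24 above that of Col1a2, that of Col6a2 was 1.23 above that of Col6a1, and that of Itgb5 was 1.12 above that of Itgav. The differences of Fbn1 and Fbn2 lay 0.26 apart and those of Itgb1 and Itga6 lay 0.05 apart, both within the between-probe SD.

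Different probes of a gene mostly had the same sign. The 93 genes had 136 probes, and 60 genes had a single probe. In 12 of the 15 genes with more than 1 probe measured on both arrays, the 2 brightest had the same sign. Among the lower genes with a second measured probe, Fbn2, Tnc, Itgb1 and Itgav, the second probe also passed the 2-fold rule. The second probe of Hspg2 was well above background in control cells alone, at least 3.40-fold lower. Among the higher genes, Col9a1 and Col23a1 had further probes, none of them measured on both arrays.

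**Figure D3:**
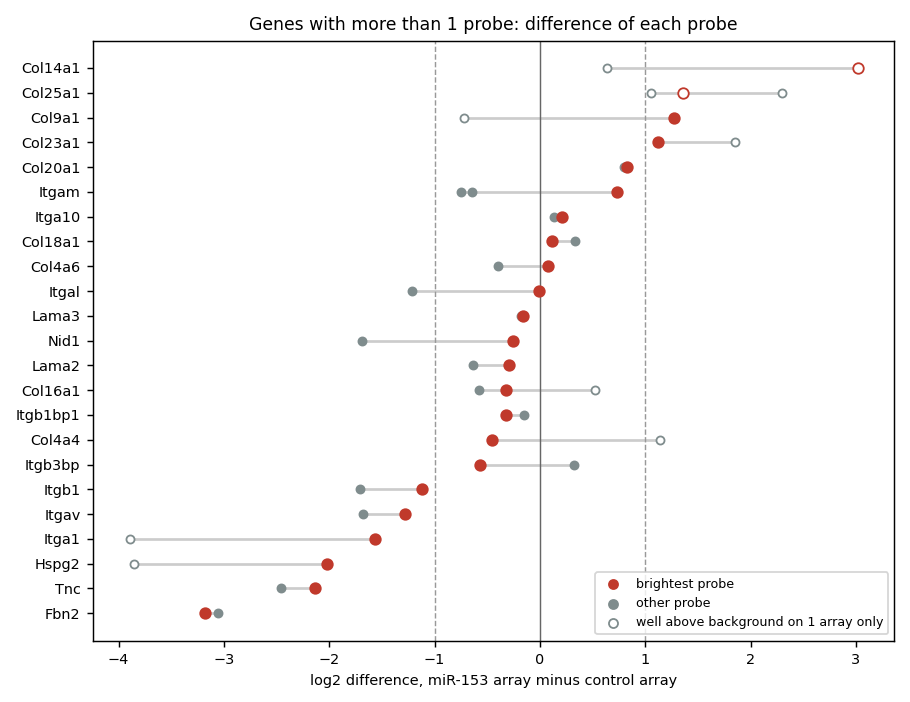
Log2 difference (horizontal axis, miR-153 array minus control array) of each probe for genes with more than 1 probe well above background on at least 1 array. The brightest probe is red and other probes are grey, and open points were well above background on 1 array only, so that their place is no measured difference. Probes of Fbn2 and Tnc lie close together, at -3.18 and -3.06 and at -2.14 and -2.46, while those of Itgam, Col9a1 and Itga1 lie apart.

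Genes that make, cut or read the matrix were examined as 5 lists. Among all gene names measured on both arrays, 9.22% were higher and 11.0% lower. Of 27 measured collagen maturation enzymes, 2 were higher (7.41%), 9 lower (33.3%) and 16 between, for a median of -0.48, beside 0.49 for the collagens. P4ha2, a prolyl hydroxylase that stabilises the triple helix, had 0.427 on the miR-153 array and 6.66 on the control array (-3.96). Crtap, of the prolyl 3-hydroxylase complex, was at -1.94, Adamts3, which trims procollagen II, at -1.70, and Loxl1, a cross-linking enzyme, at -1.54. Of 22 genes of the integrin adhesion complex, 2 were higher (9.09%), 4 lower (18.2%) and 16 between, for a median of -0.42. The adaptor gene Lims1 (PINCH1) was lower, with 4.02 on the miR-153 array and 9.59 on the control array (-1.25), and its paralog Lims2 (PINCH2) was higher, with 6.01 and 1.68 on those arrays (1.84). Zyx, encoding zyxin, was at -1.29 and Nedd9, a docking protein gene, at 1.29. Of 14 other matrix receptors, 1 was higher (7.14%), 2 lower (14.3%) and 11 between, for a median of -0.25. The shares of these receptors and of the adhesion complex lay near those of all genes. The hyaluronan receptor gene Cd44 (-1.32) and the syndecan gene Sdc1 (-1.30) were lower, and Ddr2, a collagen-binding kinase gene, was higher (1.09). With normexp, 0 of the maturation enzymes and 0 of these receptors were higher. After lowess the median of these receptors was 0.04.

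Of 28 other matrix glycoproteins, 3 were higher, 9 lower and 16 between, for a median of 0.03. The lower ones furthest from 0 were Thbs2 (-2.74), Ccn2 (-2.32), Fbln1 (-2.13) and Fbln2 (-2.07), which encode a thrombospondin, a matricellular growth factor binder and a pair of fibulins. With normexp the median was -0.10. Spp1, encoding osteopontin, an integrin ligand, was well above background in control cells alone, with 0.0154 on the miR-153 array and 0.633 on the control array, at least 18.4-fold lower. Of 19 matrix proteases and inhibitors, 3 were higher (15.8%), 4 lower (21.1%) and 12 between, for a median of -0.39. Timp1, an inhibitor of metalloproteinases, had 0.102 on the miR-153 array and 0.915 on the control array (-3.16). Mmp24, a membrane-bound metalloproteinase of neurons, had 0.921 on the miR-153 array and 0.118 on the control array (2.97). Adamts9 (-2.00) and Adamts1 (-1.68), proteases that cut proteoglycans, were lower.

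**Figure D4:**
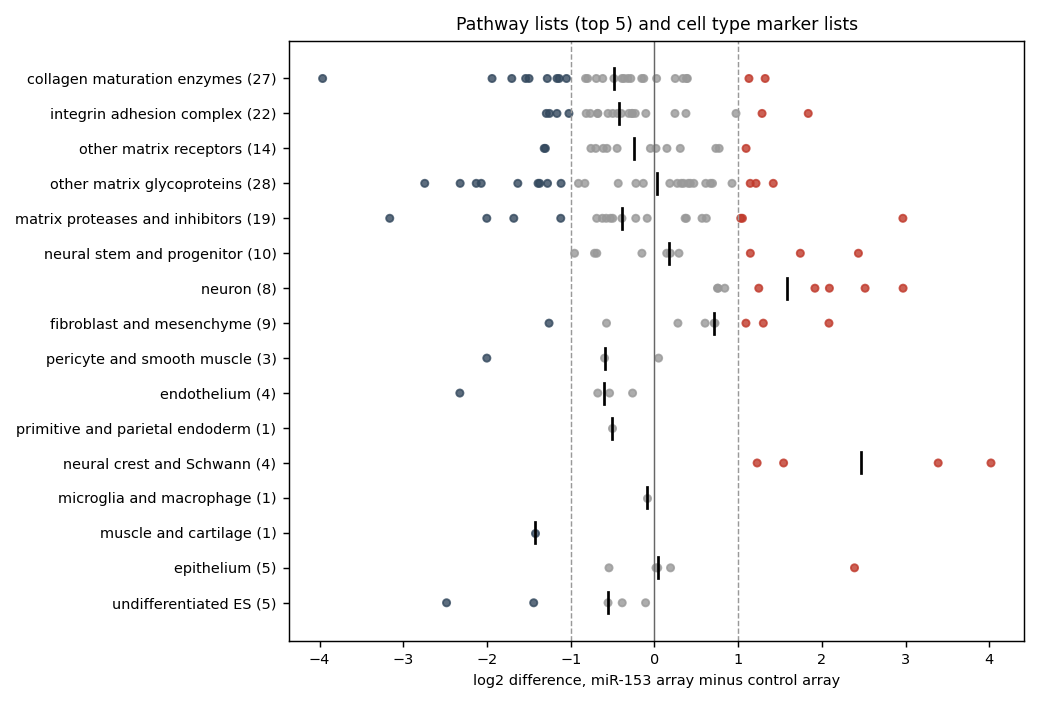
Log2 difference (horizontal axis, miR-153 array minus control array) of each gene measured on both arrays in 5 pathway lists and 11 marker lists, with the number of genes in brackets and the median as a black bar. Red points are at least 2-fold higher, dark blue points at least 2-fold lower and grey points between. The pathway lists have medians from -0.48 to 0.03, and the 4 neural crest and Schwann genes lie above 1.

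Markers of the labelled cells and of other cell types were read in the same way. Their counts stand beside 9.22% higher and 11.0% lower among all genes measured on both arrays. All 10 neural stem and progenitor markers were well above background on both arrays, with 3 higher, 0 lower and a median of 0.17. Their differences ran from -0.95 for Nes to 2.44 for Hes5. Their summed scaled signal was 730 on the miR-153 array and 731 on the control array. Most of each sum came from Fabp7, with 416 and 365 on those arrays, and Vim, with 167 and 275. Of 8 neuron markers, 5 were higher and 0 lower, with a sum of 131 on the miR-153 array and 46.0 on the control array. Of 12 fibroblast and mesenchyme markers, 9 were measured on both arrays, with 3 higher (Pdgfrb at 2.08, Dcn at 1.30 and Lum at 1.09, 2 genes with normexp) and 1 lower (Thy1 at -1.26). Twist2, seen in control cells alone, was at least 2.07-fold lower, and Meox1 and Tcf21 were well above background on neither array. Of 8 neural crest and Schwann markers, 4 were measured on both arrays and all 4 were higher, among them Sox10 at 1.54 and Ngfr at 1.23, though 3 were with normexp. Foxd3 and Erbb3 were well above background on neither array. Endothelial markers had 4 of 10 measured on both arrays, with 0 higher and 1 lower (Flt1 at -2.32) and a sum of 10.8 on the miR-153 array and 17.5 on the control array, of which Kdr gave 10.4 on the miR-153 array and 16.6 on the control array. Pecam1 and Emcn were dim on both arrays, at 0.0746 and 0.0705 on the miR-153 array and 0.0894 and 0.102 on the control array. Vwf and Esam were well above background in miR-153 cells alone, and Cdh5, Tek, Tie1 and Cldn5 on neither array. Pericyte and smooth muscle markers had 3 of 8 measured, with 0 higher, 1 lower (Cspg4 at -2.00) and a sum of 2.19 on the miR-153 array and 3.22 on the control array, and Cnn1, seen in control cells alone, was at least 2.38-fold lower. Rgs5, Kcnj8, Abcc9 and Myh11 were well above background on neither. Of 8 primitive and parietal endoderm markers, 1, Dab2 (-0.51), was measured on both arrays. Of 6 epithelial markers, 5 were measured, with Cdh1 higher (2.39). Of 7 markers of undifferentiated stem cells, 5 were measured and 2 were lower, Esrrb at -2.48 and Dppa5a at -1.44. The part of any of these cell types in the matrix differences was not tested. In these bulk samples, fewer cells of a type and less RNA per cell cannot be told apart.

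The 250 bases before the start of transcription were read for the 66 genes with an entry in the RefSeq promoter table (GRCm38.p6). They are shown for the 3 most higher genes with an entry, Itga11, Col9a2 and Col11a2, and the 3 most lower ones, Fbn1, Itga5 and Lama5. Fbn2 and any other gene of its chromosome were left out of this choice. Capitals mark matches on either strand to the GC box (GGGCGG), the CCAAT box, the TATA box (TATAAA), the core of the hypoxia response element (ACGTG), the AP-1 site (TGANTCA) and the SOX core (ACAANG). Matches of different motifs do not overlap in these windows. The windows are chr9:62677605-62677854 for Itga11, chr4:121039316-121039565 for Col9a2 and chr17:34038888-34039137 for Col11a2, all on the plus strand. On the minus strand they are chr2:125506439-125506688 for Fbn1, chr15:103366792-103367041 for Itga5 and chr2:180225860-180226109 for Lama5.
Itga11: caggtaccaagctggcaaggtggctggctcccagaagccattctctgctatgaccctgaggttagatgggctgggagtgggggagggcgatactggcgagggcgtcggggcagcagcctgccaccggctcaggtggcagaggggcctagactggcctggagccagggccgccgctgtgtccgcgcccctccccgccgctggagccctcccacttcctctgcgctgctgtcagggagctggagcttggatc
Col9a2: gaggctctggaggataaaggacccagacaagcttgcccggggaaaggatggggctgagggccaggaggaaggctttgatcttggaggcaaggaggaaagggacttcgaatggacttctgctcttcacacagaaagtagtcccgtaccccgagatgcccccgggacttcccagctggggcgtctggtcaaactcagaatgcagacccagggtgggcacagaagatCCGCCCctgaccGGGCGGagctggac
Col11a2: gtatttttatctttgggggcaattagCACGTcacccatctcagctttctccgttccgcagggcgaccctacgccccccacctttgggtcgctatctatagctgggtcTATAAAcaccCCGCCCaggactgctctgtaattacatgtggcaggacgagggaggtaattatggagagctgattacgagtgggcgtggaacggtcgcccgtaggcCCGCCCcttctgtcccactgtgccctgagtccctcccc
Fbn1: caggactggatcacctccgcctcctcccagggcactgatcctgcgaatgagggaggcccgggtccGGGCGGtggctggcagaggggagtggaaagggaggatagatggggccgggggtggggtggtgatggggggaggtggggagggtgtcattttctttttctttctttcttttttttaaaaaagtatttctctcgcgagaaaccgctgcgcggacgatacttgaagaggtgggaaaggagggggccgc
Itga5: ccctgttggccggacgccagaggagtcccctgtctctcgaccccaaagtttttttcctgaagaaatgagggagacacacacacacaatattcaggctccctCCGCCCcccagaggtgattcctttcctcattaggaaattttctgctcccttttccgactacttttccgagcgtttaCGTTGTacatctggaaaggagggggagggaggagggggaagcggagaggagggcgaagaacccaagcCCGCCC
Lama5: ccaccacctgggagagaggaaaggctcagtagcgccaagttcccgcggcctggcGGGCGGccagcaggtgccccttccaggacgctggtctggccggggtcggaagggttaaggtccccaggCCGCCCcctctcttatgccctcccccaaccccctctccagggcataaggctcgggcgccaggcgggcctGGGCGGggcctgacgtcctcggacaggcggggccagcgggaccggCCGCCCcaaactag
Lama5 holds 4 GC boxes, Col9a2, Col11a2 and Itga5 hold 2 each, Fbn1 holds 1 and Itga11 none. Col11a2 also has a TATA box and the letters of the hypoxia response core. Over the 66 windows, 51.5% hold a GC box, against 32.7% of all 32851 windows in the table. It was in 7 of 10 higher and 8 of 12 lower genes. The CCAAT box was present in 25.8% of the 66 and 33.9% of all windows, the SOX core in 28.8% and 36.3%, the hypoxia response core in 10.6% and 16.6%, the TATA box in 9.09% and 12.4%, and the AP-1 site in 3.03% and 6.75%. The hypoxia response core was in 1 of the 10 higher and 1 of the 12 lower genes, and the SOX core in 1 of 10 and 4 of 12. Each of the 66 genes gave 1 window. The shares of the whole table count every window, with no reduction to 1 per gene and no matching by kind of gene. Whether matrix genes are richer or poorer in a motif was not tested. A match is a description of letters, and factor binding was not measured.

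Most calls held across the settings. Of the 33 genes at least 2-fold apart, 25 stayed at least 2-fold apart in every setting that gave a value, out of 11 alternatives, and 0 changed sign. Itga1, counted among the 25, had no value with normexp or quantile normalization. The dim Col11a2 ranged from 1.13 with normexp to 2.34 with spike-in scaling, and Col12a1 from -2.95 to -1.96 with normexp. Col2a1 ranged from 1.99 to 2.28 and Fbn2 from -3.18 to -2.95. Of the 32 genes that lay between, 9 changed sign in some setting.

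**Figure D5:**
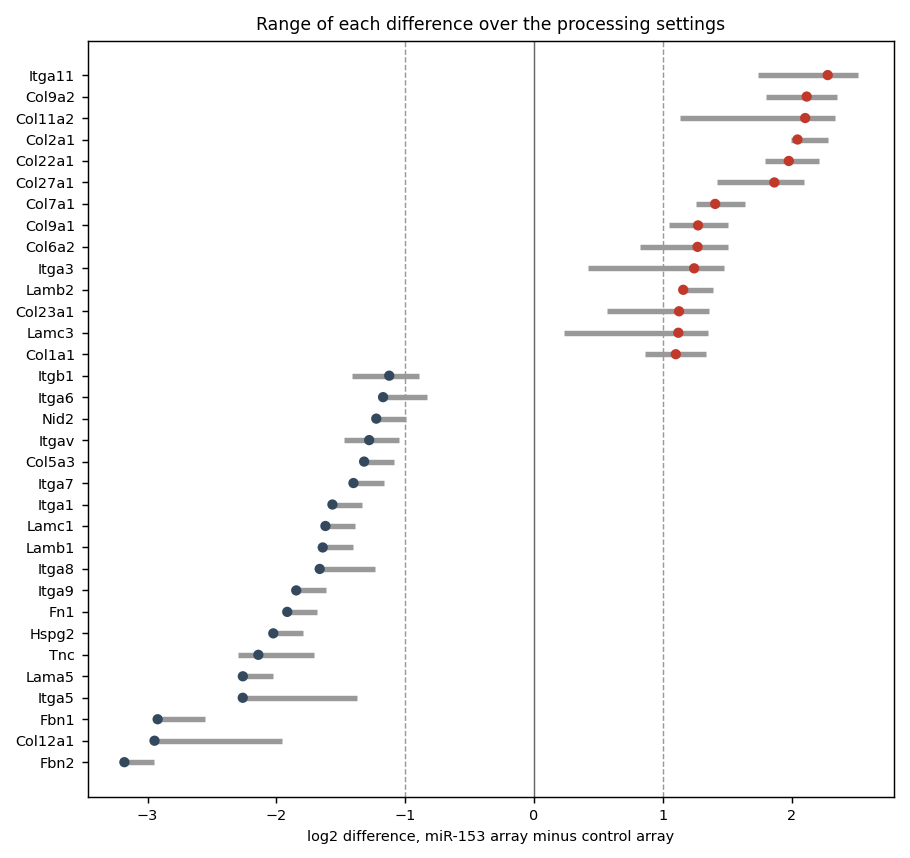
Range of the log2 difference (horizontal axis, miR-153 array minus control array) over the processing settings for the 33 genes at least 2-fold apart. Points are the reported values, red for higher and dark blue for lower, grey bars run from the lowest to the highest setting, and dashed lines mark 2-fold. No bar crosses 0, and 8 bars cross a dashed line, Lamc3 reaching down to 0.24.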

How the data were processed

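Total RNA of 1 miR-153 and 1 control neurosphere sample was measured on 1-colour (Cy3) Agilent arrays, both on 1 slide per the file headers. Per the submitters' processing notes, the authors' scanner files come from Agilent Feature Extraction (10.7.3.1). Their deposited processed signal is a background-subtracted intensity, per the file headers. The deposited series table holds the same intensity divided by a constant per array, 485 (miR-153) and 381 (control), so its scale is linear and its direction kept, without centring. Its medians were 0.0614 and 0.0662, and it served as an alternative.

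Each level is the processed signal over the 75th percentile of the 59305 non-control spots, as log2. Spots flagged as outliers on either array (229) were left out and repeat spots averaged. The brightest probe, by mean level over both arrays, stood for a gene. A gene above background on 1 array has a lower bound, set against its own signal on the other array or the lowest level well above background there (-4.86 for miR-153, -4.34 for control), whichever is higher. At least 2-fold is a rule of size. No test is possible with 1 array per group, and the number of arrays limits precision. Probe positions are mm9, from the files; exon and UTR positions were not used here.

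Values are given for each gene at least 2-fold apart or so bounded, for the 3 brightest of each family, for families listed in full, and for up to 4 genes per pathway list. Genes whose call turned, whose probes disagreed or that partner such a gene were named after their values were seen. A few genes of the families and marker lists are counted in their totals but not reported here by name. Members and lists were chosen with earlier results of these data known.

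Alternatives were normexp (limma 3.58.1 in R 4.3.3, offset 50), quantile and lowess (span 0.3) normalization, spike-in scaling, the percentile over detected probes, no filter, only genes of at least median level, the mean of probes, outlier flags kept, the series table and, added after seeing the data, background-flagged spots also left out. Scripts ran in Python 3.11.15 and were tested on simulated data.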

Additional observations from a re-analysis of the deposited data

Results flagged for a closer look

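Col3a1, the chain of the fibrillar collagen of soft tissue and vessels, stood apart because its only probe carried an outlier flag. It was thus left out of the reported counts and medians, although the spot was bright. Its scaled signal was 4.33 on the miR-153 array and 2.96 on the control array, a log2 difference of 0.55, which lies short of 2-fold. With outlier-flagged spots kept, the collagen median was 0.51, against 0.49 without them.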

How the results depend on the processing

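No paired analysis was possible because each group has 1 array. Over 77 recomputed counts and medians of the families, 72 stayed within 1.5 times the reported count or, for medians, within the between-probe SD of 0.48, and 5 moved further. The 72 include a laminin median that changed sign under spike-in scaling and an integrin median of -0.22 after quantile normalization. None of the 33 called members changed sign in a setting that gave it a value. With normexp, 9 members were at least 2-fold higher, where 5.87% of all genes were. With only genes of at least median level, 26 members were left, with 2 higher, Col2a1 and Lamb2, and 12 lower (7.05% and 8.89% of all genes). The laminin median was then -1.62 and the integrin median -1.17. Without a filter on dim probes, 19 of 92 were higher and 23 lower (9.89% and 12.0% of all genes). Spike-in scaling gave 16 higher and 16 lower and a laminin median of 0.07, against 14, 19 and -0.16; the median of all members was 0.22 there and -0.01 as reported. Calls lost were Col1a1, Col6a2, Col23a1, Itga3 and Lamc3 with normexp, Itgb1 and Nid2 with spike-in scaling, and Itga6 with spike-in, quantile and lowess scaling. Calls gained were Col11a1 and Col20a1 with spike-in scaling and Itgam with quantile and lowess. Among the lists, normexp left 0 higher collagen maturation enzymes and 0 higher other receptors, against 2 and 1, and 6 other glycoproteins were higher after quantile and lowess normalization, against 3. The cause was not tested. Signal over background limits the dim genes, and no spread between cultures is known.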
